A study of Homo sapiens with 6 samples.

Results

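The transcripts described here come from the ZBTB, ZSCAN, ZKSCAN and ZFP families of zinc finger genes in LNCaP, a human prostate cancer line that grows in response to androgen and came from a metastasis. Cells were kept in serum-containing medium and exposed for 4 h to 250 nM CDKI-73, an inhibitor of CDK9 (3 biological replicates), or to its vehicle, DMSO (3 biological replicates). Groups follow the treatment label, since the titles of the vehicle samples also hold the name of the drug. Nothing beyond the word biological is given on how the replicates were grown, so p-values measure the spread between these samples. CDK9 phosphorylates RNA polymerase II and its pausing factors, a step that frees the enzyme for elongation. The compound acts on CDK7 and some cell cycle kinases too in assays of purified enzymes. In treated LNCaP cells the paper also reports less phosphorylation of RNA polymerase II at a site used to read CDK7 activity. The parts of these kinases cannot be told apart here. Both groups are a single cell line, read at a single dose and time point. Members were chosen by symbol alone: ZBTB, ZSCAN or ZKSCAN with a number and at most one letter, or ZFP with a number, leaving out *ZFP36*, whose product binds RNA. Of 29744 genes in the deposited table, 85 had such a symbol, and the 72 with a mean of at least 0.5 CPM (read counts scaled to a common library total) over the 6 samples are the members: 38 ZBTB, 16 ZSCAN, 6 ZKSCAN and 12 ZFP genes. The member nearest to this limit was *ZFP2*, with a mean of 1.39 CPM, and the gene nearest to it from below was *ZBTB8B*, with 0.162 CPM.

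C2H2 zinc finger proteins bind DNA through arrays of fingers, each of which contacts a few bases, and the rest of the protein decides which partners they bring along. ZBTB proteins carry a BTB domain, through which they form dimers and contact corepressors such as NCOR1 and BCOR or the ubiquitin ligase scaffold CUL3. The SCAN domain of ZSCAN proteins is a dimerization module found in vertebrates, and most ZKSCAN proteins add a KRAB domain. Many KRAB domains, though not all, recruit TRIM28 and the histone methyltransferase SETDB1 to silence chromatin. ZFP is a naming remnant rather than a domain class: *ZFP1*, *ZFP14*, *ZFP28*, *ZFP30*, *ZFP37*, *ZFP82* and *ZFP90* encode KRAB proteins, whereas the products of *ZFP62*, *ZFP64* and *ZFP91* lack KRAB.

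The number of counted reads, inferred from the step between CPM values, was 46.1 to 60.9 M per sample, so that 1 read is worth 0.0164 to 0.0217 CPM. The lowest value of any member in any sample corresponds to 9 reads. The LNCaP markers *KLK3*, *KLK2*, *TMPRSS2*, *FOLH1* and *HOXB13* lay between 176.2 and 3336 CPM in every sample. The stromal markers summed to 9.47 to 10.2 CPM with DMSO and 12.8 to 15.0 CPM with CDKI-73, nearly all from *COL1A1*, while *COL1A2* was listed at 0 in every sample and *DCN* and *LUM* stayed under 0.5 CPM. Immune, endothelial and basal markers summed to less than 12 CPM each. Nearly all of this came from *CD68* (4.81 to 7.22 CPM), *VWF* (10 to 11.9 CPM) and *KRT14* (0.51 to 1.31 CPM). The other markers of these types, *PTPRC*, *CD3E*, *PECAM1*, *CDH5*, *KRT5* and *TP63*, were all at or near 0. CPM are shares of the counted reads, so a change in the RNA content of the cells does not show in them, and in bulk samples fewer cells of a type and less RNA per cell cannot be told apart.

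One library stands apart: of the treated samples, CDKI-73 replicate 3 was the lowest for 53 of 72 members (73.6%), against 45.2% of all genes tested and 62.4% of all genes called lower. The median log2 difference of the members from the DMSO mean was −1.67, −1.61 and −1.89 for CDKI-73 replicates 1, 2 and 3, while that of all genes was −0.18, −0.17 and −0.20. The coefficient of variation of a member had a median of 4.75% with DMSO and 13.0% with CDKI-73, against 4.62% and 7.47% for all genes. With CDKI-73 it reached 56.3% for *ZKSCAN4*, which had 9 to 35 reads per treated sample. This comparison was not matched for level. The median of mean CPM was 11.8 for members and 23.8 for all genes, and the median share kept with CDKI-73 was 29.8% and 88.5%. CDKI-73 replicate 3 also has the fewest inferred reads, 46.1 M, and the part of depth in its lower values was not tested.

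CDKI-73 lowered most of the family. Genes were tested with limma on log2(CPM + 0.1), and a gene was called where the adjusted p was no more than 0.05 and the fold change no less than 2. Of the 72 members, 53 were called lower (73.6%), against 22.3% of the 13373 genes tested, and 1 was called higher, against 1.11% of all genes. Without CDKI-73 replicate 3 these counts were 52 and 1. At the adjusted p alone, 67 members were lower and 2 were higher, against 48.2% and 24.2% of all genes, and 3 did not pass. Of the called members, 29 were lower by at least 4-fold, against 8.12% of all genes, and 9 by at least 8-fold, against 2.53%. The median log2 fold change of the members was −1.74 and that of all genes −0.18. The 72 members together took 2272, 2300 and 2326 CPM with DMSO and 979, 1026 and 826 CPM with CDKI-73, in the order of the replicates.

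For 67 members the highest CDKI-73 value was under the lowest DMSO value, a pattern seen in 50% of all genes, and for *ZBTB16* and *ZSCAN18* the separation was the other way round, a pattern seen in 25.9%. The groups overlapped for *ZBTB20*, *ZBTB43* and *ZBTB17*. All 4 subfamilies had a median far below that of all genes: −1.46 for ZBTB (24 of 38 called lower, 63.2%), −1.83 for ZSCAN (13 of 16, 81.2%), −2.39 for ZKSCAN (6 of 6) and −1.82 for ZFP (10 of 12, 83.3%). The larger family of genes named ZNF and a number stood close to them, with 332 of 429 tested genes called lower (77.4%) and a median of −1.66. Whether the subfamilies differ from one another was not tested. The high share was seen at several levels of expression: among genes with a mean of 5 to 20 CPM, 26 of 35 members were called lower (74.3%), against 35.1% of all 2993 genes in that range, and among genes from 20 to 100 CPM 13 of 20 members (65%), against 21.5% of 4957.

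**Figure D1:**
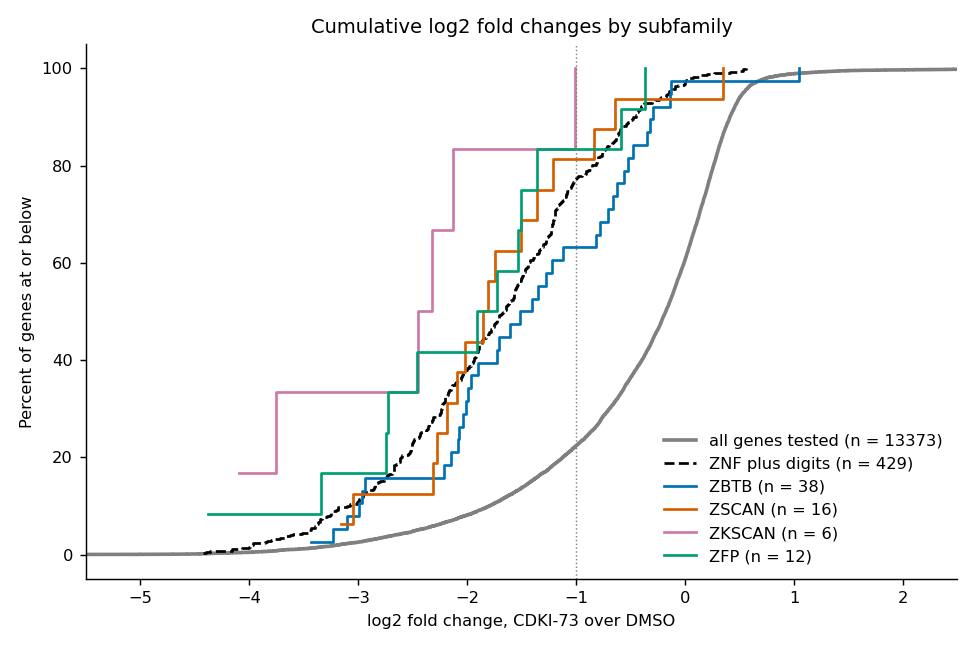
Cumulative distribution of the log2 fold change (x axis, CDKI-73 over DMSO) as the percent of genes at or below each value (y axis) for the 4 subfamilies, the ZNF genes and all genes tested, with the 2-fold limit dotted. The curves of the subfamilies lie to the left of that of all genes, with medians of −1.46 (ZBTB), −1.83 (ZSCAN), −2.39 (ZKSCAN) and −1.82 (ZFP) against −0.18.

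Another scaling of the CPM moves all genes one way. It shifted the median gene by 0.17 on the log2 scale for the median of gene ratios, 0.19 for a trimmed mean of M-values, 0.48 for the upper quartile and −0.40 for the reference genes *GAPDH*, *HPRT1* and *ACTB*. Under these 4 scalings 51, 51, 44 and 60 members were called lower, against 19%, 18.7%, 14% and 32.7% of all genes, and the median of each subfamily stayed below 0, between −0.98 and −2.79. At the adjusted p, the upper quartile scaling put 3949 of all genes lower and 7311 higher, the reverse of 6441 and 3242 as deposited, whereas members were still 56 lower and 6 higher. Directions of single members with small changes are less firm and are named below where they turned.

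The 6 ZBTB genes with the largest falls kept 7.73% to 13.2% of their mean CPM. *ZBTB3* was at 5.84, 5.14 and 4.94 CPM with DMSO and at 0.27, 0.44 and 0.52 CPM with CDKI-73. The change was −3.44 on the log2 scale (SE 0.19, limma adjusted p = 9.8e-07), and the treated values rest on only 14 to 24 reads per sample. *ZBTB24*, mutated in a syndrome of immunodeficiency and centromere instability with loss of DNA methylation, was at 42.2, 45.0 and 47.0 CPM with DMSO and at 5.81, 7.23 and 2.41 CPM with CDKI-73 (log2 fold change −3.23 ± 0.34 SE, limma adjusted p = 4.6e-05). *ZBTB6* went from 52.3, 50.3 and 48.2 CPM to 8.18, 9.23 and 2.52 CPM (log2 fold change −3.10 ± 0.42 SE, limma adjusted p = 2.1e-04). In *ZBTB24* and *ZBTB6* the third CDKI-73 replicate was well below the other two, and all 3 were far below the lowest DMSO sample. The 3′ part of *ZBTB24* overlaps *MICAL1* on the same strand by 5337 bases in the annotation, where counts per gene can be incomplete.

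*ZBTB26*, *ZBTB9* and *ZBTB48* had log2 fold changes of −2.99, −2.97 and −2.94. *ZBTB48* encodes TZAP, a protein that binds telomeric repeats and limits telomere length. It had 13.4, 13.1 and 11.6 CPM with DMSO and 1.56, 1.75 and 1.41 CPM with CDKI-73, a tight spread in both groups (SE 0.11, limma adjusted p = 1.1e-07). *ZBTB26* had 7.01, 8.24 and 7.13 CPM with DMSO and 0.94, 1.14 and 0.56 CPM with CDKI-73. *ZBTB9* had 22.8, 21.3 and 22.9 CPM with DMSO and 3.60, 3.14 and 1.87 CPM with CDKI-73. For *ZBTB21* and *ZBTB42* the log2 fold changes were −2.21 and −2.14, from means of 71.7 and 29.9 CPM to means of 15.5 and 6.69 CPM, with no overlap between the groups.

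The genes for the ZBTB proteins that bind methylated CpG did not move alike. *ZBTB33*, which encodes Kaiso, was at 95.1, 100.3 and 99.7 CPM with DMSO and at 26.9, 27.5 and 20.2 CPM with CDKI-73, a log2 fold change of −1.99 (limma adjusted p = 8.6e-07). *ZBTB38* stood at 36.6 ± 1.29 CPM (SD, n = 3) with DMSO and 9.77 ± 0.79 CPM (SD, n = 3) with CDKI-73, a log2 fold change of −1.90, and its annotated span shares 43541 bases with *PXYLP1* on the same strand. *ZBTB4*, the other gene of this kind, was at 40.4, 41.5 and 43.9 CPM with DMSO and at 36.7, 36.2 and 30.2 CPM with CDKI-73. Its log2 fold change of −0.29 passed the adjusted p (0.012 from limma) but not the 2-fold limit. The change did not pass with the median of gene ratios, the trimmed mean or voom on inferred reads (limma adjusted p = 0.20, 0.28 and 0.29), nor against a 1.5-fold change. With the upper quartile scaling it turned to 0.21 and passed as higher (limma adjusted p = 0.036).

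*ZBTB10*, which encodes a repressor of Sp transcription factors, had the highest mean CPM of the ZBTB genes. It fell from 189.2, 192.4 and 193.7 CPM to 61.3, 62.8 and 52.4 CPM (log2 fold change −1.71 ± 0.069 SE, limma adjusted p = 1.7e-07). *ZBTB7A*, which encodes LRF, a repressor of fetal globin genes, went from 45.6, 49.5 and 53.3 CPM to 30.0, 30.6 and 23.7 CPM, a log2 fold change of −0.82 that was under 2-fold. *ZBTB7B*, known for ThPOK and the CD4 T cell lineage, went from 125.3, 110.9 and 110.6 CPM to 90.1, 95.01 and 66.1 CPM (log2 fold change −0.48, limma adjusted p = 0.0096), and with the upper quartile scaling it stood at 0.02. It did not pass the adjusted p there, nor with the trimmed mean, with voom or against a 1.5-fold change.

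*ZBTB17*, which encodes MIZ1, a partner of MYC in repression, had 7.86, 7.34 and 8.09 CPM with DMSO and 7.25, 7.48 and 6.62 CPM with CDKI-73. Its log2 fold change of −0.12 (SE 0.080, limma adjusted p = 0.19) was the smallest of the ZBTB genes, and the groups overlapped. *ZBTB43*, at 44.2 ± 0.78 CPM (SD, n = 3) and 40.9 ± 8.71 CPM (SD, n = 3), had an adjusted p of 0.42 from limma. *ZBTB20*, a repressor of the alpha-fetoprotein gene in liver, had 8.91, 7.71 and 9.93 CPM with DMSO and 8.39, 7.19 and 5.40 CPM with CDKI-73 (limma adjusted p = 0.084). These 3 were the members that did not pass the adjusted p, and their calls depend on the scaling. With the reference genes all 3 passed as lower, at −0.75, −0.54 and −0.53 for *ZBTB20*, *ZBTB43* and *ZBTB17* (limma adjusted p = 0.0040, 0.016 and 9.8e-04). With the upper quartile *ZBTB43* and *ZBTB17* passed as higher, at 0.36 and 0.37 (limma adjusted p = 0.036 and 0.0023), and *ZBTB20* was at 0.14 (limma adjusted p = 0.43). Without CDKI-73 replicate 1 *ZBTB20* passed as lower (−0.49, limma adjusted p = 0.025), and without CDKI-73 replicate 3 *ZBTB43* turned to 0.054 and did not pass.

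*ZBTB16* was the one member called higher. It encodes PLZF, a transcriptional repressor that is induced by androgen in prostate cells. It was at 18.3, 18.6 and 20.4 CPM with DMSO and at 40.4, 44.5 and 34.2 CPM with CDKI-73, so that every treated sample lay above every DMSO sample. Its annotated span shares 46150 bases with a long non-coding RNA gene on the opposite strand, and which strand was counted is not given. The log2 fold change was 1.05 (SE 0.097, limma adjusted p = 2.0e-05). This lies just past the 2-fold limit: it was 0.96 without CDKI-73 replicate 2 and 0.64 after scaling to the reference genes, both still past the adjusted p, and 1.54 after scaling to the upper quartile.

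The remaining ZBTB genes all passed the adjusted p in the lower direction. Those called lower were *ZBTB39*, *ZBTB11*, *ZBTB5*, *ZBTB49*, *ZBTB18*, *ZBTB40*, *ZBTB45*, *ZBTB2*, *ZBTB46*, *ZBTB8A*, *ZBTB14*, *ZBTB41* and *ZBTB22*, with log2 fold changes from −2.09 to −1.12. Those under 2-fold were *ZBTB47*, *ZBTB12*, *ZBTB34*, *ZBTB44*, *ZBTB25*, *ZBTB37* and *ZBTB1*, from −0.78 to −0.32, and none passed the adjusted p against a 1.5-fold change. With the upper quartile scaling *ZBTB1* turned to 0.18 and passed as higher (limma adjusted p = 0.018). There *ZBTB12*, *ZBTB34*, *ZBTB44*, *ZBTB25* and *ZBTB37* did not pass, and *ZBTB1* did not pass with the trimmed mean or voom. *ZBTB1*, which is needed for lymphoid development, stood at 78.1 ± 3.77 CPM (SD, n = 3) with DMSO and at 62.5 ± 3.38 CPM (SD, n = 3) with CDKI-73.

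**Figure D2:**
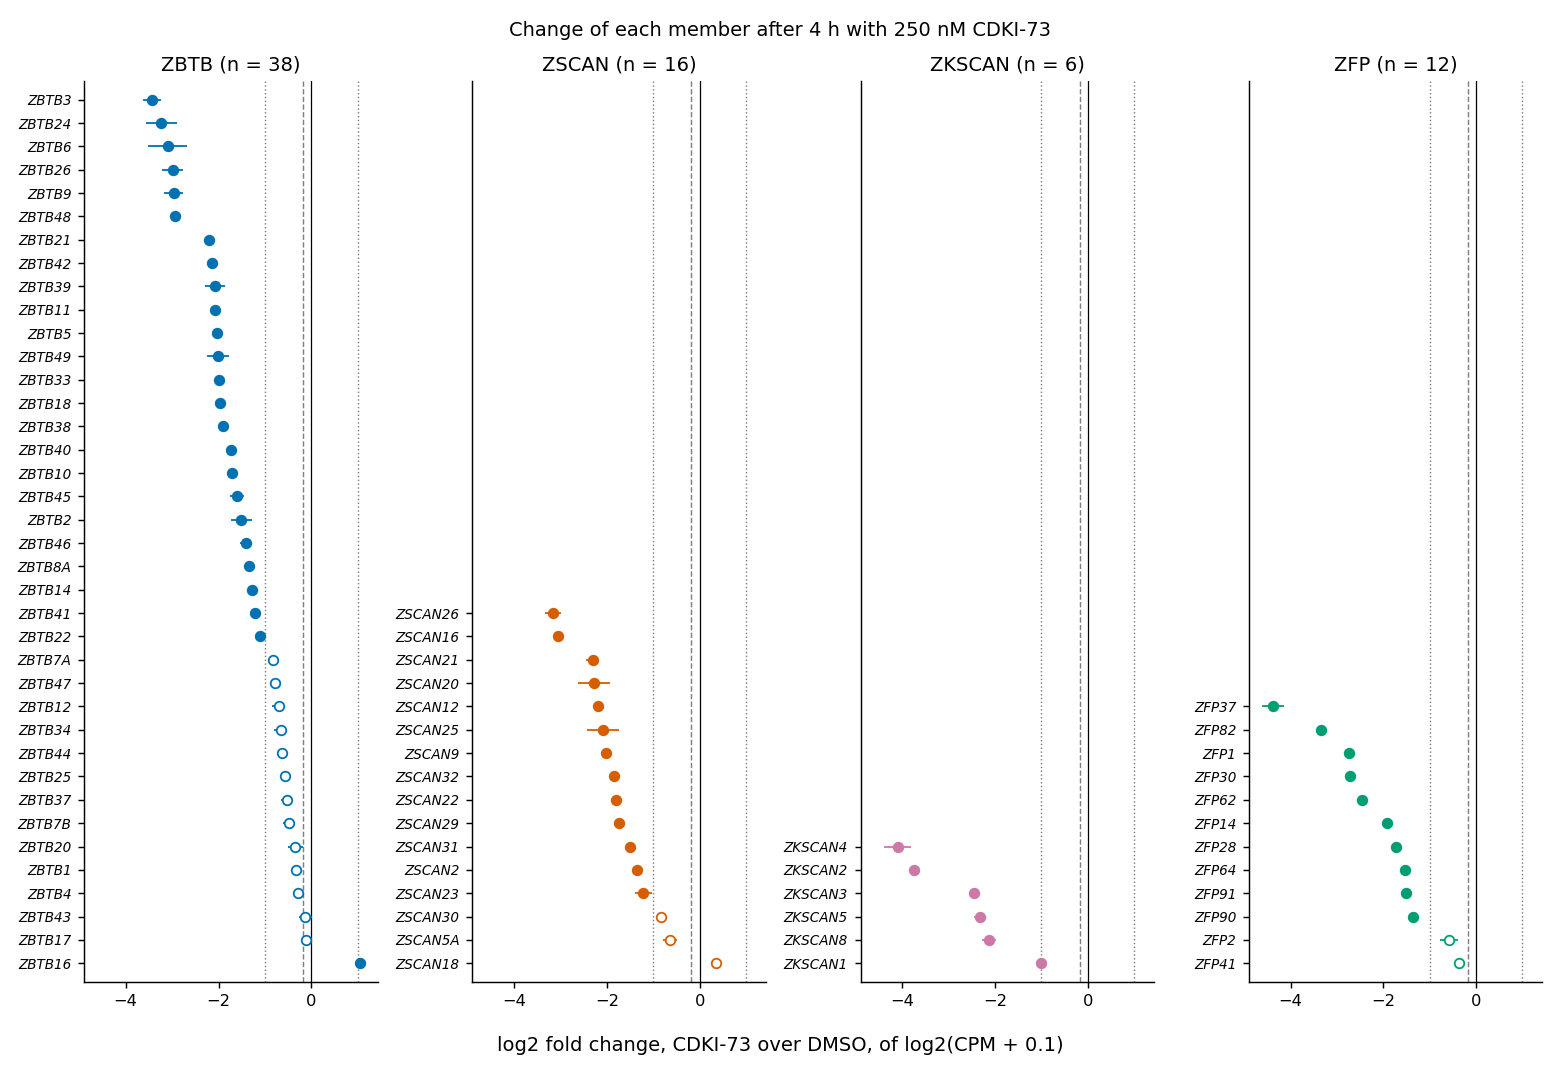
Log2 fold change of each of the 72 members (CDKI-73 over DMSO, bars are the standard error of limma), with called members as filled points, others open, the 2-fold limits dotted and the median of all genes (−0.18) dashed. In every subfamily most points lie left of the lower limit, and *ZBTB16* (1.05) and *ZSCAN18* (0.35) are the 2 to the right of 0.

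Of the ZSCAN genes, 15 were lower at the adjusted p and 1 was higher. The largest falls were those of *ZSCAN26* and *ZSCAN16*. *ZSCAN26* was at 6.43, 6.86 and 6.88 CPM with DMSO and at 0.92, 0.54 and 0.59 CPM with CDKI-73 (log2 fold change −3.15 ± 0.18 SE, limma adjusted p = 8.9e-07). *ZSCAN16* was at 13.9, 13.6 and 13.9 CPM with DMSO and at 1.73, 1.54 and 1.5 CPM with CDKI-73 (log2 fold change −3.04 ± 0.086 SE, limma adjusted p = 4.5e-08). In both genes the treated samples kept a small part of the DMSO level (10.2% and 11.5%) and the replicates of *ZSCAN16* lay close together. In the annotation *ZSCAN26* shares 11104 bases with an unnamed protein-coding gene on the same strand, where counts per gene can be incomplete. *ZSCAN16* shares 22394 bases with *ZSCAN16-AS1* on the opposite strand.

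*ZSCAN20* was less even, with 5.97, 6.19 and 6.64 CPM with DMSO and 1.42, 2.0 and 0.61 CPM with CDKI-73. It changed by −2.28 ± 0.34 SE on the log2 scale. *ZSCAN21* went from 6.61, 7.07 and 6.26 CPM to 1.29, 1.52 and 1.02 CPM, a log2 fold change of −2.31. *ZSCAN29*, the ZSCAN gene with the highest mean CPM, went from 33.0, 31.6 and 33.0 CPM to 9.47, 10.5 and 8.98 CPM, a log2 fold change of −1.75 (limma adjusted p = 1.7e-07). The other ZSCAN genes called lower were *ZSCAN12*, *ZSCAN25*, *ZSCAN9*, *ZSCAN32*, *ZSCAN22*, *ZSCAN31*, *ZSCAN2* and *ZSCAN23*, from −2.19 to −1.21. *ZSCAN30* (−0.83) and *ZSCAN5A* (−0.64) were lower by less than 2-fold, and *ZSCAN5A* has near-identical neighbours with which reads could be shared. Neither passed the adjusted p against a 1.5-fold change. With the upper quartile scaling *ZSCAN5A* was at −0.17 and did not pass (limma adjusted p = 0.31).

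*ZSCAN18* went the other way by a small but even step. It was at 15.9, 15.9 and 15.7 CPM with DMSO and at 20.4, 19.9 and 20.01 CPM with CDKI-73. The step was 0.35 on the log2 scale (SE 0.052, limma adjusted p = 4.3e-04), under the 2-fold limit, and the groups were fully separated. Scaling to the reference genes turned it to −0.06 (limma adjusted p = 0.42), so that its rise holds relative to all counted reads and not to those genes.

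All 6 ZKSCAN genes were called lower. *ZKSCAN4* was at 8.24, 8.28 and 8.0 CPM with DMSO and at 0.67, 0.39 and 0.20 CPM with CDKI-73, and its log2 fold change of −4.10 (SE 0.29, limma adjusted p = 4.1e-06) was larger than that of all but 0.381% of the genes tested. *ZKSCAN2* had 14.6, 15.4 and 16.2 CPM with DMSO and 1.10, 0.96 and 1.08 CPM with CDKI-73 (log2 fold change −3.76 ± 0.092 SE, limma adjusted p = 2.7e-08). *ZKSCAN3*, whose product represses genes of autophagy and lysosomes, had 10.2, 9.93 and 10.1 CPM with DMSO and 1.71, 1.72 and 1.87 CPM with CDKI-73 (log2 fold change −2.45 ± 0.082 SE, limma adjusted p = 7.7e-08). The treated replicates of *ZKSCAN2* and *ZKSCAN3* nearly coincided, whereas those of *ZKSCAN4* differed by more than 3-fold at a level of 9 to 35 reads per sample.

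*ZKSCAN5* and *ZKSCAN8* had log2 fold changes of −2.33 and −2.13, from means of 28.7 and 32.0 CPM to means of 5.71 and 7.37 CPM. *ZKSCAN1*, which also gives rise to an abundant circular RNA that polyA selection would not retain, had the highest mean CPM of all 72 members. It was at 204.3, 209.4 and 218.9 CPM with DMSO and at 110.6, 119.3 and 87.2 CPM with CDKI-73. The log2 change was −1.01 (SE 0.11, limma adjusted p = 4.3e-05), at the edge of the 2-fold limit. It was −0.88 without CDKI-73 replicate 3, −0.90 without that sample and DMSO replicate 1, and −0.98 without DMSO replicate 3. With the median of gene ratios, the trimmed mean, the upper quartile and voom it was −0.83, −0.81, −0.51 and −0.81. All of these passed the adjusted p but not the 2-fold limit, so the count of called ZKSCAN genes was then 5 of 6.

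All 12 ZFP genes were lower at the adjusted p. *ZFP37* had the largest fall of any member: it was at 9.21, 8.87 and 8.47 CPM with DMSO and at 0.29, 0.54 and 0.22 CPM with CDKI-73. It changed by −4.38 on the log2 scale (SE 0.23, limma adjusted p = 6.8e-07), and 0.194% of all genes tested fell further. *ZFP82* was at 14.1, 13.9 and 12.9 CPM with DMSO and at 1.37, 1.37 and 1.06 CPM with CDKI-73 (log2 fold change −3.34 ± 0.12 SE, limma adjusted p = 8.9e-08). *ZFP1* went from 19.0, 17.3 and 16.9 CPM to 2.94, 2.51 and 2.26 CPM, a log2 fold change of −2.74. *ZFP30* went from 38.8, 42.0 and 38.4 CPM to 5.60, 6.67 and 5.53 CPM, a log2 fold change of −2.73. The treated samples of *ZFP37*, *ZFP82*, *ZFP1* and *ZFP30*, all KRAB genes, kept 3.95% to 14.9% of the mean DMSO level. Those of the KRAB genes *ZFP14*, *ZFP28* and *ZFP90* kept more, 26.3%, 30.0% and 39.1%.

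The ZFP genes named above as lacking KRAB are *ZFP62*, *ZFP64* and *ZFP91*. *ZFP62* changed by −2.45 on the log2 scale, from 67.3, 70.7 and 69.8 CPM to 12.4, 12.5 and 12.8 CPM (SE 0.049, limma adjusted p = 2.0e-08). *ZFP91*, which encodes a ubiquitin ligase of NF-kappaB signaling, was at 149.4, 148.6 and 151.1 CPM with DMSO and at 50.1, 54.1 and 53.4 CPM with CDKI-73, a log2 fold change of −1.51 (SE 0.046, limma adjusted p = 5.6e-08). The read-through gene *ZFP91-CNTF* spans 42379 of its bases on the same strand, which can take reads from it in both groups. *ZFP64*, a factor that maintains *KMT2A* expression in leukemia, went from 20.6, 19.1 and 20.8 CPM to 7.22, 6.67 and 6.73 CPM, a log2 fold change of −1.54. The KRAB genes *ZFP14*, *ZFP28* and *ZFP90* had log2 fold changes of −1.91, −1.73 and −1.35.

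The smallest changes of this subfamily were those of *ZFP2* and *ZFP41*, which were not sorted by KRAB here. *ZFP41* was at 17.1, 15.4 and 18.0 CPM with DMSO and at 12.7, 13.0 and 13.4 CPM with CDKI-73, with a log2 fold change of −0.36 (limma adjusted p = 0.0022) that turned to 0.13 with the upper quartile scaling. It did not pass the adjusted p there, nor with the trimmed mean, with voom or against a 1.5-fold change. *ZFP2*, at 1.69 ± 0.29 CPM (SD, n = 3) and 1.10 ± 0.26 CPM (SD, n = 3), had a log2 fold change of −0.59 (limma adjusted p = 0.025), which no longer passed without DMSO replicate 2 or 3, with 3 of the 4 scalings, with voom on inferred reads or against a 1.5-fold change.

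**Figure D3:**
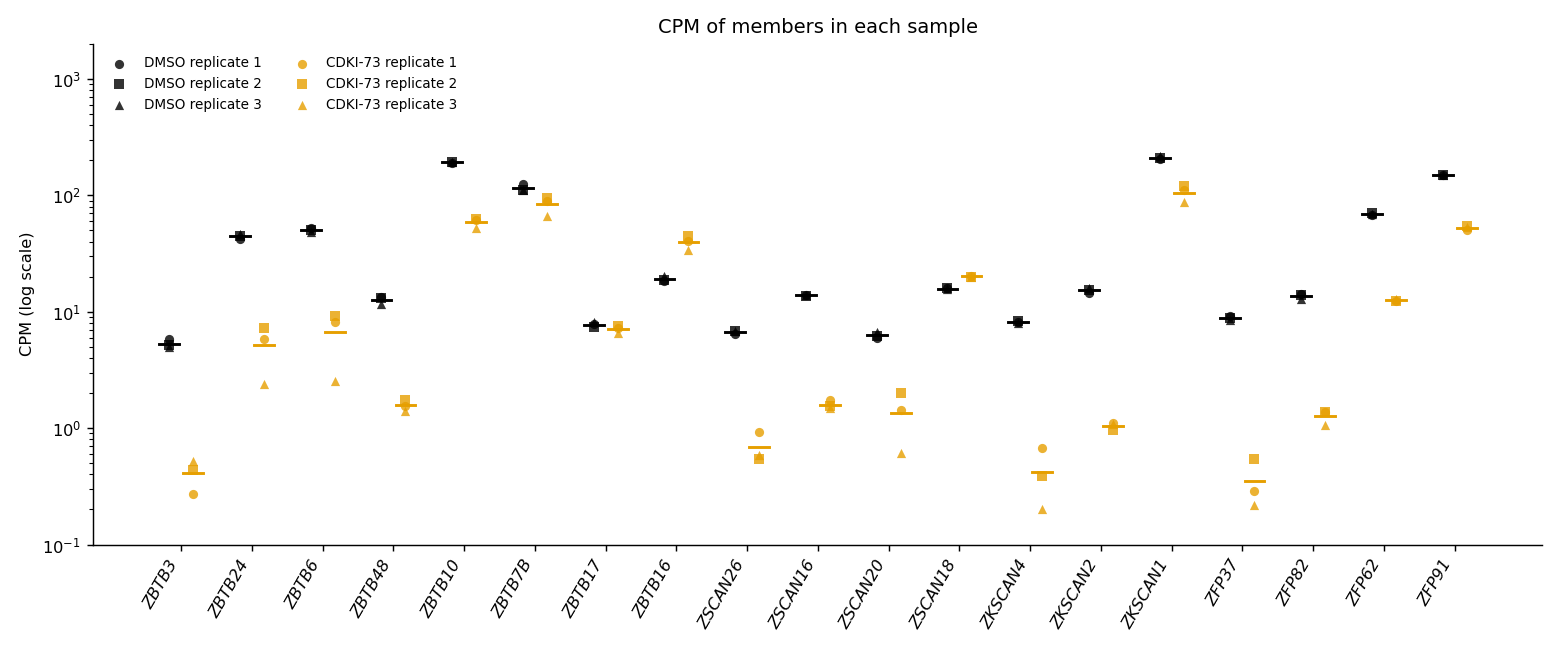
CPM (log scale) of 19 members in each of the 6 samples, with DMSO in black, CDKI-73 in orange, marker shapes for the replicates and a bar at the mean of each group. The groups are separated for all but *ZBTB17*; CDKI-73 lies above DMSO for *ZBTB16* and *ZSCAN18* and below it for the other members, and the triangle of CDKI-73 replicate 3 stands low in *ZBTB24*, *ZBTB6* and *ZSCAN20*.

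Levels can be compared between genes only per length, for which CPM were divided by the kilobases of the canonical transcript. On this scale *ZBTB7B* was the most abundant member with DMSO (32.1 CPM per kb), followed by *ZFP91* (25.9), *ZKSCAN1* (22.4), *ZBTB1* (21.4), *ZBTB10* (19.3) and *ZBTB33* (18.7). With CDKI-73 the order became *ZBTB7B* (23.2 CPM per kb), *ZBTB1* (17.1), *ZKSCAN1* (11.2), *ZFP91* (9.10), *ZSCAN18* (7.92) and *ZBTB44* (7.87). *ZSCAN18* moved from rank 27 to rank 5, and *ZBTB6* from rank 8 to rank 30. Across the 72 members the log2 fold change bore little relation to the DMSO level per kb (Spearman's rho −0.02 across genes, which share the same 6 libraries and are not replicates).

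**Figure D4:**
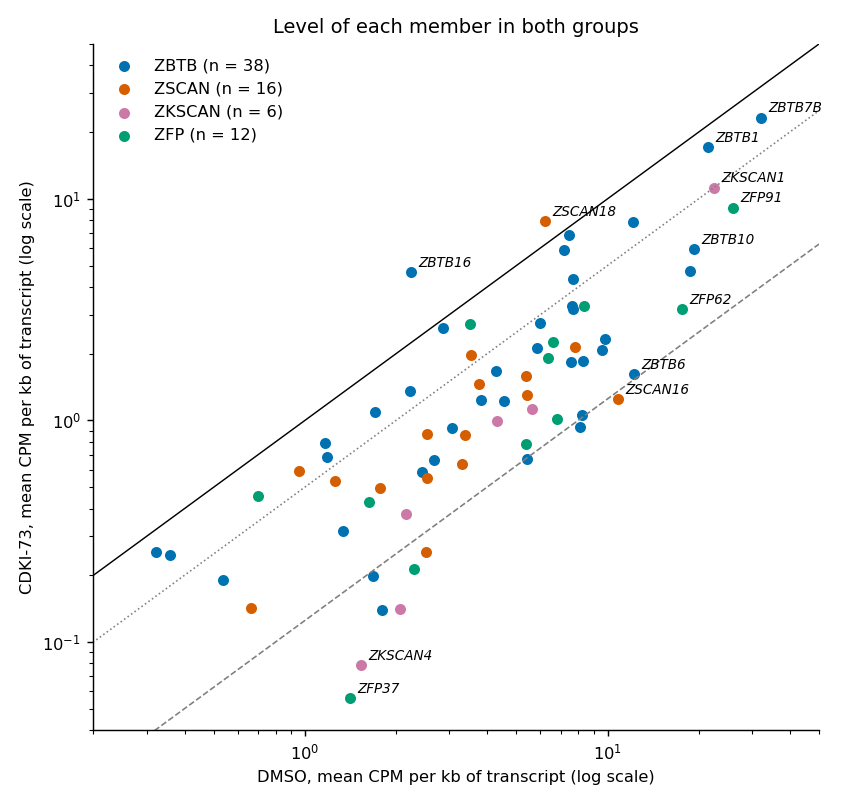
Mean CPM per kb of transcript of each member with DMSO (x axis) and CDKI-73 (y axis), both on log scales, colored by subfamily, with equality as a solid line, a 2-fold fall dotted and an 8-fold fall dashed. *ZBTB16* and *ZSCAN18* lie above equality, *ZFP37* and *ZKSCAN4* below the 8-fold line, and falls occur at low and high levels alike.

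Several members lie next to one another in the genome, and 28 of the 72 have another member within 500 kb. The largest group is on chromosome 6 of hg38, from 28107689 to 28443502, where *ZSCAN16*, *ZKSCAN8*, *ZSCAN9*, *ZKSCAN4*, *ZSCAN26*, *ZSCAN31*, *ZKSCAN3*, *ZSCAN12* and *ZSCAN23* follow each other within 0.336 Mb. All 9 were called lower, with log2 fold changes from −4.10 for *ZKSCAN4* to −1.21 for *ZSCAN23*. Neighbours differed in size: *ZSCAN9* had a log2 fold change of −2.02 and *ZKSCAN4*, the next member, of −4.10. The spans of *ZSCAN31* and *ZKSCAN3* overlap by 6325 bases on opposite strands, and the strand column that was counted is not given in the sources used here. On chromosome 7, from 99504662 to 100065040, *ZKSCAN5*, *ZSCAN25*, *ZKSCAN1* and *ZSCAN21* were also all called lower, from −2.33 to −1.01, as were 3 of the 5 other tested genes that lie between them.

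On chromosome 9 neighbours went together but the pairs went apart. *ZBTB6* and *ZBTB26* (122908056 to 122931512) had log2 fold changes of −3.10 and −2.99, whereas *ZBTB43* and *ZBTB34* (126805006 to 126885878) were at −0.13 and −0.66. On chromosome 14 *ZBTB25* and *ZBTB1*, whose ends overlap by 1502 bases on opposite strands, had small changes of −0.56 and −0.32. On chromosome 19, from 58083838 to 58538911, *ZSCAN22* (−1.80) and *ZBTB45* were called lower and *ZSCAN18* was at 0.35. Of the 15 other tested genes in this stretch, 11 were called lower.

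**Figure D5:**
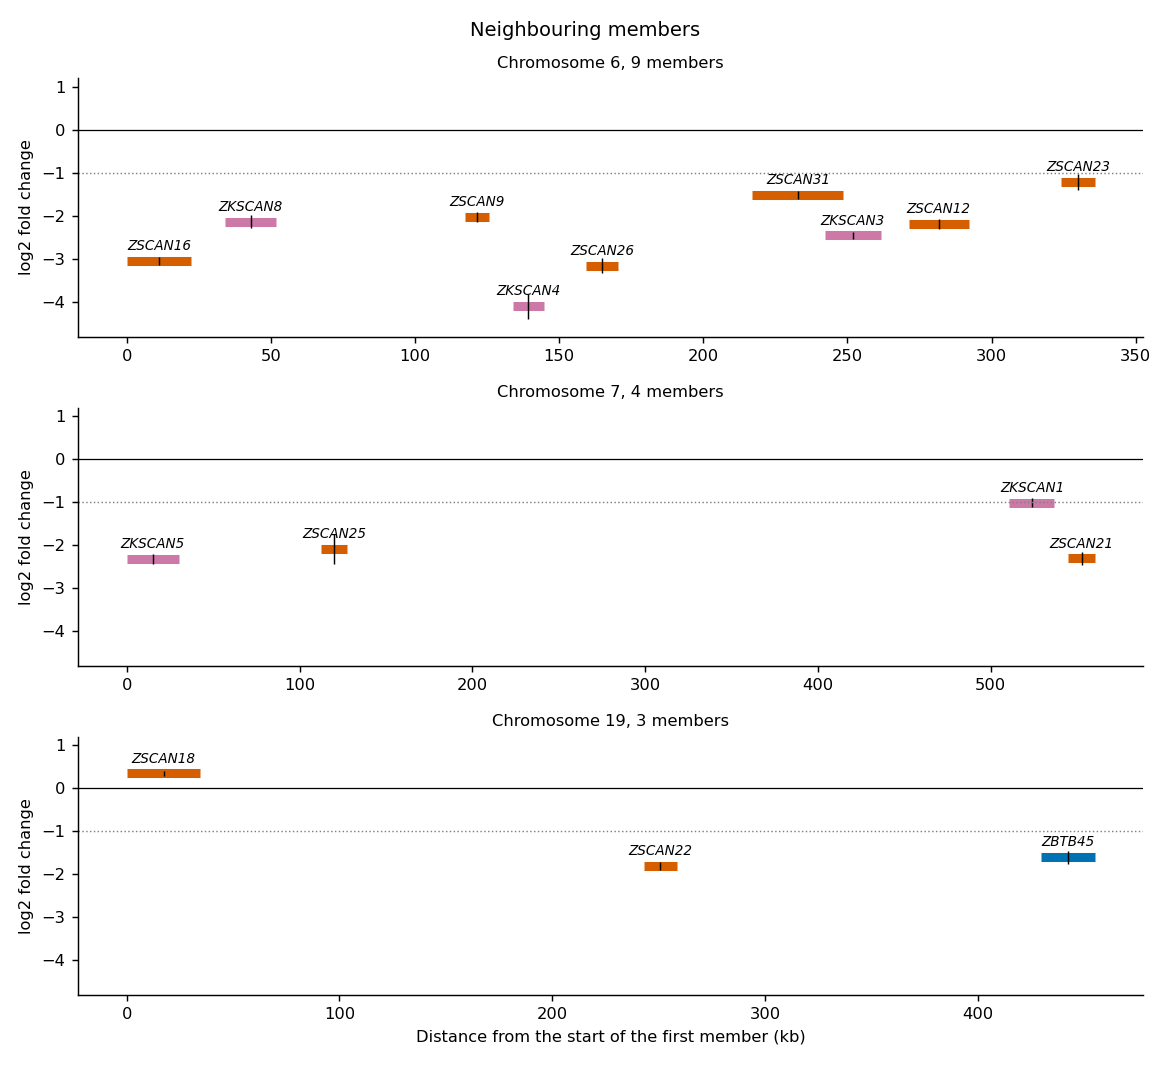
Log2 fold change (y axis, vertical bars are the standard error) of members that lie side by side, against the distance from the start of the first member in kb (x axis); each colored segment is the span of a gene, with ZBTB in blue, ZSCAN in orange and ZKSCAN in pink, and the 2-fold limit is dotted. All 9 members on chromosome 6 and all 4 on chromosome 7 lie below the limit, and on chromosome 19 *ZSCAN18* stands above 0.

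The members are genes of moderate length with few exons. Their median span was 24.3 kb, against 33.2 kb for the 11590 tested genes with a unique place in the annotation, and the canonical transcript had a median of 4.5 exons, against 9. Across all genes, 51.2% of the 847 with 1 or 2 exons and 17.6% of the 8280 with 6 or more were called lower. Among the members the shares were 76.9% of 13 and 75% of 28, without the gap between few and many exons that all genes had, though the difference was not tested. *ZBTB48*, with 11 exons, was at −2.94 and *ZBTB42*, with a single exon, at −2.14. Across the 72 members the log2 fold change had a Spearman's rho of 0.41 with the span of the gene, against −0.07 across all placed genes, a description over genes that share the same libraries. Of the 25 members from 5 to 20 kb, 22 were called lower (88%, against 24% of all genes of that span), and of the 11 members of 50 kb or more 6 (54.5%, against 20.6%), the latter including *ZBTB16* (197.7 kb) and *ZBTB20* (832.8 kb).

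Start regions of the members were searched for short motifs, because the members moved together. RefSeq start regions (250 bases before to 50 after a gene's start) were at hand for 59 of the 72 members. The letters CCGGAAG, the core that ETS factors bind, were present on either strand in 21 of them (35.6%), against 19.7% of the 9487 start regions of tested genes, 20.6% of those of genes called lower and 10.7% of all 27305. The ZNF genes had a like share, 42.1% of 366. By subfamily the letters were present in 8 of 14 ZSCAN, 3 of 5 ZKSCAN, 9 of 32 ZBTB and 1 of 8 ZFP regions. They were in 17 of 44 members called lower (38.6%) and in 4 of 15 others (26.7%). The TATA box letters TATAAA were in none of the 59 regions, against 5.2% of those of tested genes, and the GC box letters GGGCGG were in 67.8%, against 70.3%. The letters CCAAT were in 20 of 59 (33.9%, against 37.3% of those of tested genes), namely in 19 of 44 members called lower (43.2%) and 1 of 15 others (6.67%), against 40.1% of all genes called lower. The CRE letters TGACGTCA and the E-box letters CACGTG were in 5.08% and 11.9%, against 3.31% and 10.3% of those of tested genes. A core motif of NRF1 was found in 1 region and that of YY1 in none.

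The 250 bases before the start are shown for the member with the largest fall in each subfamily among those that hold the ETS letters there and have the same start within 1 kb in both annotations, and for *ZSCAN18*, which rose and has none. The regions were picked by the letters, so they cannot show whether letters and falls go together. *ZFP37* (−4.38), *ZKSCAN4* (−4.10) and *ZBTB3* (−3.44) fell further than the genes shown, and their regions hold no match. *ZBTB43* (−0.13) and *ZBTB4* (−0.29) changed little, and theirs hold one. Capitals mark CCGGAAG or, where it lies on the other strand, CTTCCGG. Sequences are from RefSeq, build GRCh38.p14, 5′ to 3′ on the strand of the gene.
ZBTB24 (chr6:109483220-109483469, minus strand): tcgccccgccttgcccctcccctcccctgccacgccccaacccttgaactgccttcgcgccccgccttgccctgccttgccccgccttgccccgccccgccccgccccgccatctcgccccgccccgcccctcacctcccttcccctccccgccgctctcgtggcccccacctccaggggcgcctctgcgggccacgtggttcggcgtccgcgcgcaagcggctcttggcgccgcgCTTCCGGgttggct
ZSCAN20 (chr1:33472395-33472644, plus strand): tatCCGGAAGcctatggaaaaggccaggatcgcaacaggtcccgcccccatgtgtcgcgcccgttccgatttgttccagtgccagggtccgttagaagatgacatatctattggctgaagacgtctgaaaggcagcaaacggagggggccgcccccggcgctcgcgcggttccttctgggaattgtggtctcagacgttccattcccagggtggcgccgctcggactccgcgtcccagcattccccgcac
ZKSCAN3 (chr6:28349697-28349946, plus strand): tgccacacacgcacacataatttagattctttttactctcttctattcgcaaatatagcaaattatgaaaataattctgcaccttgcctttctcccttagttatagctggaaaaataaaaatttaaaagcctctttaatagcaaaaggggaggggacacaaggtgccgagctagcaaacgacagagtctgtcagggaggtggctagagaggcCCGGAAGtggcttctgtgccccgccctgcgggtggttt
ZFP62 (chr5:180861277-180861526, minus strand): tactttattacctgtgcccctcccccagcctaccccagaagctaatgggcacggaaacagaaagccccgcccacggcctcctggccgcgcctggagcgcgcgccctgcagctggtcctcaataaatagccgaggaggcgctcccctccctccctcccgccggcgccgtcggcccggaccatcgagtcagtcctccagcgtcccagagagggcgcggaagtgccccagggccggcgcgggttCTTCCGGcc
ZSCAN18 (chr19:58118405-58118654, minus strand): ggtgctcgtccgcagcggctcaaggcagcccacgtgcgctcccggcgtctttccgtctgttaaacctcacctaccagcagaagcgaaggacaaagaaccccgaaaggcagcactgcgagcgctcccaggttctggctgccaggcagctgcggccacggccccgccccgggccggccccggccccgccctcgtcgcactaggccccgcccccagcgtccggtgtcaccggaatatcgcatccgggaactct
The match begins 14 bases before the start in *ZBTB24*, 9 in *ZFP62*, 38 in *ZKSCAN3* and 247 in *ZSCAN20*. The regions differ in composition, with 30 CG dinucleotides in that of *ZBTB24*, 27 in that of *ZSCAN18* and 7 in that of *ZKSCAN3*. Across the 59 members the log2 fold change had a Spearman's rho of −0.09 with the number of CG dinucleotides in the whole region. A match of letters is a description and says nothing of which factor is bound.

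Most genes of the same domain classes under other names were called lower too, and whether they differ from the members was not tested. Those named ZNF and a number, among them *ZNF131* and most SCAN genes, were already counted in the ZNF family above. *ZNF274* and *ZNF446* also lie in the chromosome 19 stretch, so these counts are not independent. All 6 tested BTB zinc finger genes of other names were called lower (22.3% of all genes were), with a median log2 fold change of −1.59, the largest falls being those of *GZF1* (−2.65, limma adjusted p = 2.0e-05) and *ZNF131* (−1.88, limma adjusted p = 5.7e-08). Among them *BCL6* encodes a transcriptional repressor that acts in germinal center B cells. *BCL6* had 48.6, 48.8 and 52.6 CPM with DMSO and 18.9, 19.7 and 15.7 CPM with CDKI-73. Of 20 tested SCAN genes of other names, 15 were called lower (75%) and none was called higher, with 0 higher at an unadjusted p under 0.05 in limma. The largest falls were those of *ZNF165* (−3.24) and *ZNF274* (−2.98), and the median was −1.43.

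The genes for the partners of these proteins had a median log2 fold change nearer to that of all genes. Their levels were also higher, with a median of 89.7 CPM against 11.8 CPM for the members, and the comparison was not matched for level. Of all genes from 20 to 100 CPM 21.5% were called lower, and of those at 100 CPM or more 5.22%. Of 29 tested genes for corepressors and partners, 6 were called lower (20.7%, against 22.3% of all genes), 16 were lower and 5 higher at the adjusted p, and the median was −0.40. *SIN3A*, a scaffold of histone deacetylase complexes, had the largest fall of the list, with 96.5 ± 7.13 CPM (SD, n = 3) under DMSO and 11.9 ± 1.64 CPM (SD, n = 3) under CDKI-73, and *BCOR*, a corepressor of BTB proteins, had a log2 fold change of −2.32. In the KRAB pathway *SETDB1* had a log2 fold change of −1.43 (limma adjusted p = 1.8e-07), while *TRIM28*, the protein that many KRAB domains bind, was at 249.5 ± 13.2 CPM (SD, n = 3) with DMSO and 268.5 ± 11.9 CPM (SD, n = 3) with CDKI-73 (limma adjusted p = 0.11). *HDAC3*, a histone deacetylase, had a log2 fold change of 0.01.

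The 13 genes of these families under the limit were near the floor in all samples. *ZSCAN1* and *ZFP57*, a guardian of imprinted methylation, were listed at 0 in every sample. *ZSCAN4*, *ZFP42* and *ZSCAN10*, known from early embryos and pluripotent cells, reached at most 0.07, 0.05 and 0.04 CPM. *ZBTB7C*, *ZBTB8B*, *ZBTB32*, *ZSCAN5B*, *ZKSCAN7*, *ZFP3*, *ZFP69* and *ZFP92* reached at most 0.25 CPM, so no change could be measured for them at this depth. The limit was set on the mean of all 6 samples, and *ZBTB3*, *ZFP37* and *ZKSCAN4* passed it through their DMSO level, with CDKI-73 means of 0.41, 0.35 and 0.42 CPM.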

How the data were processed

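Stranded libraries of polyA+ RNA from LNCaP cells were read from one end. The authors mapped reads to hg38 with STAR and counted them per gene, and the submitters' processing notes also name FastQC, edgeR version 3.3 and R version 3.2.3. The deposited values are CPM, rounded by the authors to 0.01 and summing to 999999 to 1000008 per sample. Which gene annotation and strand column were used was not given in the sources used here. Counted reads were inferred as the total at which 100% of the values checked lay within rounding of whole reads.

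CPM are not counts, so log2(CPM + 0.1) of the 13373 genes with a mean of at least 0.5 CPM was tested in R 4.3.3 with the linear models of limma 3.58.1 (trended eBayes), with Benjamini-Hochberg adjustment over all of them. The fit was tested on simulated data. Fold changes on this scale understate the change of low genes. Named were the largest falls and rises, the highest means and the smallest change of each subfamily, genes of known role, and the 2 largest changes of each related list. *BCL6*, *SETDB1*, *TRIM28*, *HDAC3* and the levels of *ZBTB1*, *ZBTB43* and *ZFP2* were chosen after their values were seen. The members and lists were chosen with earlier results of these data known. Some markers and partner genes are not reported here. Spans and exons are from GENCODE on hg38, start regions from RefSeq, and all 72 members were placed. Python 3.11.15, pandas 2.3.3 and scipy 1.17.1 were used. Alternatives were pseudocounts of 0.01 and 1 CPM, no filter or 2 CPM, 4 scalings, no trend, robust fit, treat, a replicate block, each sample left out, and 2 chosen after seeing the data: limma voom on inferred reads, and leaving out the libraries with the most and the fewest reads.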

Additional observations from a re-analysis of the deposited data

How the results depend on the processing

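Members called lower numbered 44 to 60 over the 20 alternatives, and 52 to 53 when 1 sample was left out, while the share of all genes called lower ran from 14% to 32.7%. Members called higher were 0 after scaling to *GAPDH*, *HPRT1* and *ACTB* and without CDKI-73 replicate 2 (range 0 to 1 over samples left out). Members higher at the adjusted p were 6 with the upper quartile scaling, 1 with the reference genes and 1 with treat. Of 1437 refitted member values, 1381 kept direction and side, 36 lost the adjusted p in the same direction, 4 gained it and 16 turned. With the upper quartile *ZBTB7B* (0.017), *ZBTB20* (0.14), *ZBTB1* (0.18), *ZBTB4* (0.21), *ZBTB43* (0.36), *ZBTB17* (0.37) and *ZFP41* (0.13) turned, and with the reference genes *ZSCAN18* (−0.060). *ZBTB43* and *ZBTB17* also turned with the median of gene ratios (0.043 and 0.050), the trimmed mean (0.062 and 0.069) and voom (0.068 and 0.072), and *ZBTB43* without CDKI-73 replicate 3 (range −0.25 to 0.054 over samples left out) and without that sample and DMSO replicate 1 (0.042). These scalings shift all genes together. Same-numbered samples deviated with correlations of −0.29, 0.11 and −0.23, so the numbers were not taken as pairs. With the replicate block 53 members were called lower and 1 higher, and 67 were lower and 2 higher at the adjusted p. Rounding to 0.01 CPM and 9 to 35 reads per sample limit the size of the fall of *ZKSCAN4*.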
